A study of Mus musculus with 2 samples.

Results

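Potassium channel genes are described here as the protein-coding genes whose symbol starts with Kcn. There were 92 of them among 43346 genes in the tables, of which 21474 were protein-coding, and 2 further genes with such a symbol were not analysed here. They were sorted by subfamily into 8 groups: the Kv1 to Kv4 genes (Kcna, Kcnb, Kcnc and Kcnd, 17 genes), Kcnq (5), Kcnh (8), the silent Kv genes (Kcnf, Kcng, Kcns and Kcnv, 10), the calcium- or sodium-activated genes (Kcnma, Kcnn, Kcnt and Kcnu, 8), the inward rectifiers (Kcnj, 14), the 2-pore genes (Kcnk, 14) and the auxiliary genes (Kcnab, Kcne, Kcnip, Kcnmb and Kcnrg, 16). The samples were midbrain from healthy mouse embryos of strain B6NCrl at age 13.5 days, male and female tissue pooled. Each of 2 libraries was prepared from 10 ng of total RNA over 200 nt with spike-in RNA added. The labels number them as biological replicates 1 and 2, with a biosample entry each and the same donor entry. The series holds 1 group, with no other age, region or genotype, so genes were compared within the tissue and the libraries with each other.

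Potassium channels let potassium ions cross the cell membrane and so set the resting potential, end action potentials and shape firing. A channel is built from pore-forming subunits around a narrow selectivity filter, and auxiliary subunits change its gating or its transport to the membrane. Voltage-gated channels open on depolarization, calcium- and sodium-activated channels answer ions inside the cell, inward rectifiers hold the membrane near rest, and 2-pore channels carry leak currents. In the embryonic brain such currents are known to appear in progenitors and in newborn neurons as excitability builds up.

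The selectivity filter is the stretch of sequence these genes share, and its coding bases are shown for a leading gene of several groups to make the family resemblance and its exceptions visible. Bases are from GENCODE M21 transcripts on GRCm38, read 5′ to 3′ along the coding strand, 45 bases each. The capitals mark 5 codons that begin with threonine or serine, followed by valine, isoleucine, leucine or threonine, then glycine, then a varying residue, then glycine.
Kcna3: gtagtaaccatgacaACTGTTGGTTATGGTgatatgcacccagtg
Kcnn1: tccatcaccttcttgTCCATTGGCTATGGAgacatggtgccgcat
Kcnma1: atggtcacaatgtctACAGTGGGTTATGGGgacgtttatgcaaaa
Kcnj9: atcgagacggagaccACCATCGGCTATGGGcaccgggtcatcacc
Kcnh2: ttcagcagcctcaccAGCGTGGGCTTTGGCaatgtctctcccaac
Kcnt1: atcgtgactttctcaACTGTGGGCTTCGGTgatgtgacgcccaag
Kcnk10, first pore: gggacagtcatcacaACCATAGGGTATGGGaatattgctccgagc
Kcnk10, second pore: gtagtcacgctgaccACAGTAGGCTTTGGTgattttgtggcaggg
Kcnk2, first pore: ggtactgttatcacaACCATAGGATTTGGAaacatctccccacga
Kcnk2, second pore: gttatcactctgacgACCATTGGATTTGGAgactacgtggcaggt
Kcnk1, second pore: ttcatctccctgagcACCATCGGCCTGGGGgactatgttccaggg

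This pattern was found in a coding sequence of all 76 members outside the auxiliary group, which gave 90 matches. It occurred once in 62 members and in both pore domains of the 14 Kcnk genes. The pattern admits the variants counted here, and protein-coding transcripts were searched by abundance until 1 matched. For Kcnh7 and Kcnu1 the match lay in Kcnh7-201 and Kcnu1-201, not in the leading Kcnh7-203 and Kcnu1-202. The printed Kcnt1 bases are from Kcnt1-201, with 0.22% and 29.4% of its gene. The Kcna6 match is in Kcna6-204, and all protein-coding transcripts of Kcna6 held 0.144% and 0.686%. The varying residue, the 4th of the motif, was tyrosine in 61 matches, phenylalanine in 26 and leucine in 3. All 17 Kv1 to Kv4, 5 Kcnq and 10 silent Kv genes had tyrosine there, and all 8 Kcnh genes had phenylalanine. Among the inward rectifiers 13 had tyrosine and 1, Kcnj11, had phenylalanine. Of the calcium- or sodium-activated genes 5 had tyrosine, and Kcnt1, Kcnt2 and Kcnu1 had phenylalanine. In the Kcnk genes the first pore held tyrosine in 11 and phenylalanine in 3, and the second pore held phenylalanine in 11 and leucine in 3 (Kcnk1, Kcnk6 and Kcnk7). Within single exons the printed Kcna3 bases lie at chr3:107037596-107037640 on the plus strand, those of Kcnh2 at chr5:24325540-24325584 on the minus strand and those of Kcnj9 at chr1:172326169-172326213 on the minus strand.

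The libraries held 31436613 and 40215359 estimated reads on genes, of which 22185 and 29916 fell on the potassium channel genes. Levels are in TPM, an abundance divided by transcript length and scaled to a fixed total per library, and so comparable between genes. Spike-ins were part of that total and took 5.36% and 9.39% of it, which lowers the TPM of genes more in replicate 2. Pairs of values are given as replicate 1 then replicate 2. Among marker genes 6 of 6 midbrain and 8 of 8 neuronal genes were detected, and 0 of 5 hindbrain Hox genes (summed TPM 0.39 and 0.19). These lists cannot show whether other tissue next to the midbrain was included. Progenitor markers (6 of 6), endothelial markers (5 of 5) and red-cell markers (5 of 5) were detected as well, so RNA of several cell types was present. In such bulk tissue fewer cells of a type and less RNA per cell cannot be told apart. The summed TPM of 5 dopaminergic markers was 67.86 and 131.68, with 4 of 5 past 2-fold, and that of 5 choroid plexus markers 72.43 and 129.87, with 1 of 5 past 2-fold and most of the difference in Ttr. The strand setting of the counting is not named in the sources, and genes that overlap another on the opposite strand are therefore uncertain.

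A gene was called detected where both libraries reached 1 TPM. This held for 53 of the 92 potassium channel genes (57.6%), beside 60.2% of all protein-coding genes, a share near the background. Their levels were low for detected genes. The median of the 53 was 4.02 TPM, beside 19.7 TPM over all detected protein-coding genes, and 7 of the 92 (7.61%) had a mean of at least 10 TPM, beside 40.7% of protein-coding genes. The 92 genes summed to 351.16 and 350.37 TPM. Genes above 10 TPM included Kcnip1, Kcnk10, Kcne1l, Kcnab2, Kcnk2 and Kcnmb4.

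**Figure D1:**
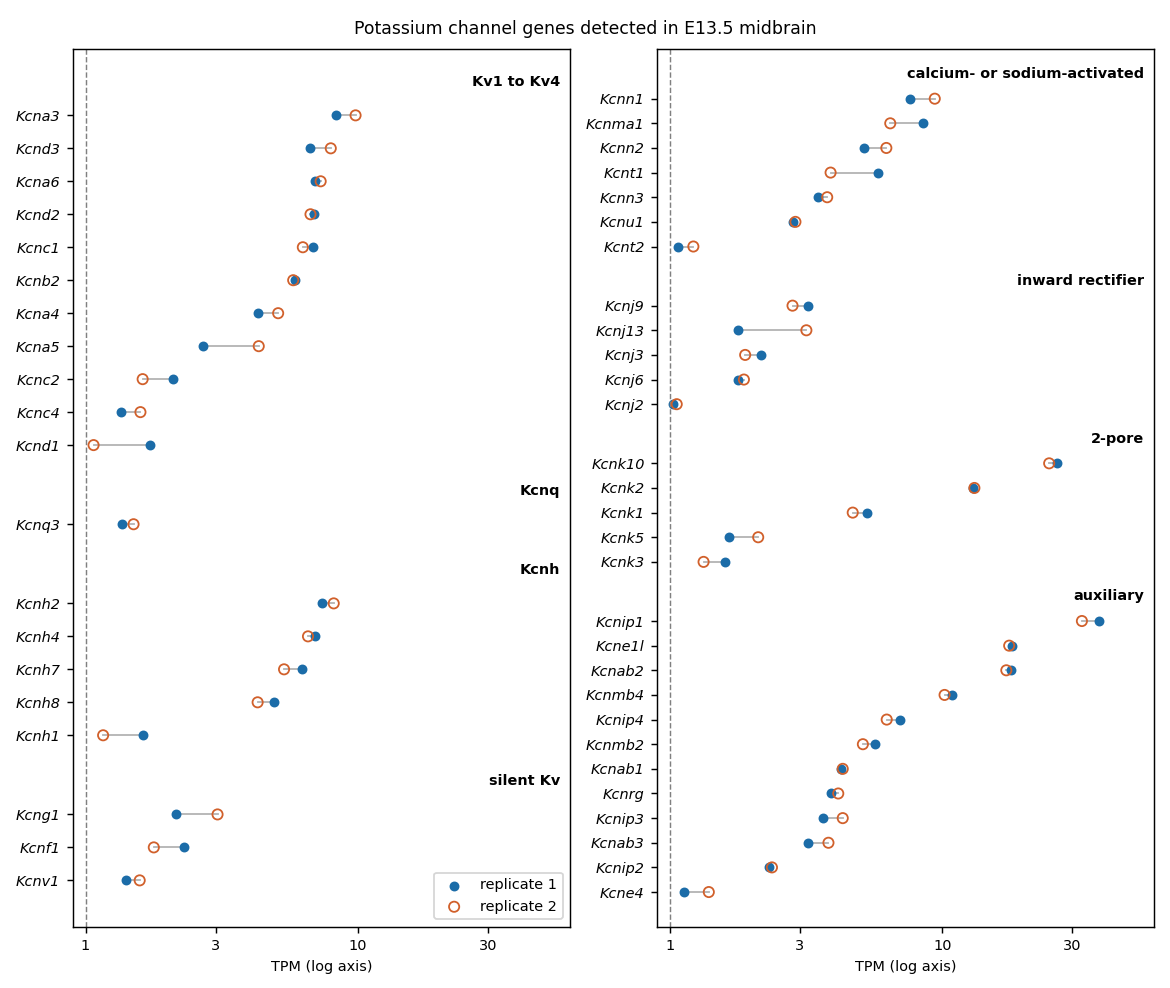
TPM (log axis) of 49 detected potassium channel genes in replicate 1 (filled) and replicate 2 (open), by group and ordered by mean, with the dashed line at 1 TPM. Kcnip1 and Kcnk10 stand above 20 TPM in both libraries, and most other points lie between 1 and 10 TPM.

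The auxiliary group took the largest share of the summed TPM, 33.2% and 31.6%. The Kv1 to Kv4 group followed at 16.8% and 17.9%, the 2-pore group at 14.0% and 13.8% and Kcnq at 11.9% and 12.5%. The calcium- or sodium-activated group had 9.90% and 9.76%, Kcnh 8.24% and 7.83%, the inward rectifiers 3.79% and 4.21% and the silent Kv genes 2.25% and 2.42%. The order of the 8 groups was the same in both libraries. The shares rest on how many genes a group has and how few carry it: the 2-pore genes reached theirs with 5 of 14 detected, and Kv1 to Kv4 with 13 of 17.

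**Figure D2:**
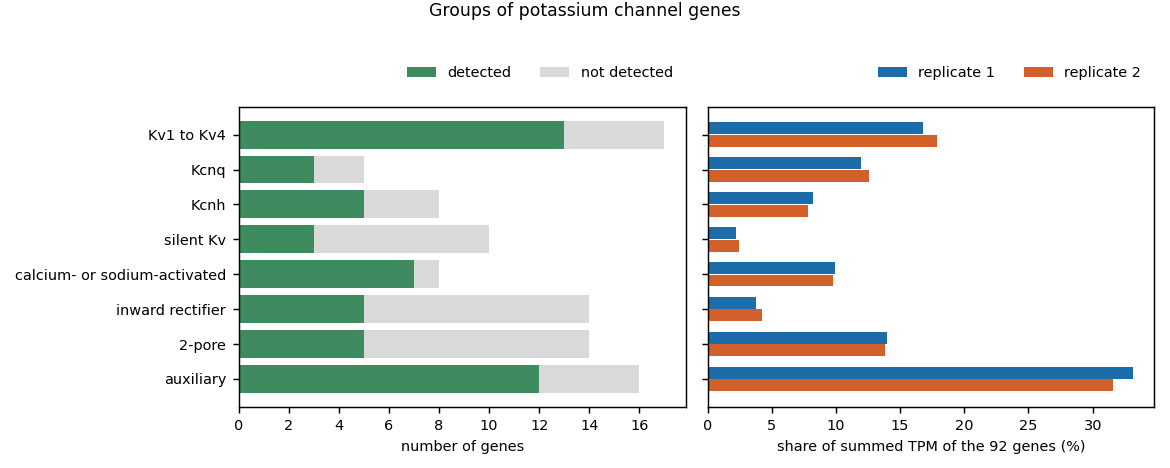
Left, number of genes detected (1 TPM or more in both libraries) and not detected in each group; right, share of the summed TPM of the 92 genes in each library, in percent. The inward rectifier and 2-pore groups have 9 undetected genes each, and the auxiliary bar is the longest on the right.

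Among the voltage-gated Kv1 to Kv4 genes, 13 of 17 were detected and none was dominant. Kcna3, a Kv1 subunit best known from lymphocytes and also present in neurons, had 8.28 and 9.79 TPM (chromosome 3, 107036169 to 107038070, GRCm38). Kcnd3 had 6.65 and 7.94 TPM and Kcnd2 6.91 and 6.69 TPM; both encode Kv4 subunits of the fast-inactivating A-type current. Kcna6 had 6.93 and 7.29 TPM and Kcnc1, a Kv3 subunit of fast-spiking neurons, 6.83 and 6.27 TPM. These 5 lay within a narrow band, and the next 8 detected genes ran down to 1.40 TPM (mean, Kcnd1). In the order of means, none of the 12 steps between neighbours had a 95% interval that excluded 0, so no neighbour differed from the next beyond the spread between libraries.

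Kcnb2, which encodes a Kv2 delayed-rectifier subunit, had 5.87 and 5.78 TPM, close to Kcnc1 above it (1.12-fold on the log2(TPM + 0.1) scale, 95% interval 0.878 to 1.43). Kcnc2 (2.10 and 1.62 TPM) and Kcnc4 (1.35 and 1.59 TPM), further Kv3 genes, lay lower. Kcnd2 and Kcnd3 did not differ beyond the spread: the log2 ratio was -0.09, with an interval from -0.46 to 0.27. These intervals, here and below, come from the spread between these 2 libraries, shared across all genes with a TPM of at least 1.

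The Kv1 genes of axons differed in level. Kcna1 had 0.78 and 0.91 TPM and Kcna2 0.33 and 0.32 TPM, both under the detection level, while Kcna4, another axonal Kv1 gene, had 4.31 and 5.09 TPM. Kcna5 had 2.70 and 4.32 TPM. Kcna7 and Kcna10, listed at 0 counts in both libraries, allow at most 3 counts each. All 8 Kcna genes summed to 23.33 and 27.72 TPM, 4 of them detected.

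Some of these genes sit side by side on the chromosome and yet differed in level. Kcna3, Kcna2 and Kcna10 lie on the plus strand of chromosome 3 between 107036169 and 107195721, with 8.28, 0.33 and 0.00 TPM in replicate 1 and 9.79, 0.32 and 0.00 TPM in replicate 2. Kcna5, Kcna1 and Kcna6 lie on the minus strand of chromosome 6 between 126532551 and 126740674, and there Kcna6 was highest and Kcna1 lowest in both libraries. On protein-coding transcripts alone Kcna6 had 0.01 and 0.05 TPM and was the lowest of that trio. The promoter windows of the chromosome 3 trio are printed because neighbours of 1 family with such different levels can be compared base by base. They are RefSeq windows on GRCm38.p6, from 250 bases before to 50 after the start, and capitals mark each CG dinucleotide. Kcna3 is chr3:107035912-107036211, Kcna2 is chr3:107101317-107101616 and Kcna10 is chr3:107182893-107183192, all on the plus strand.
Kcna3: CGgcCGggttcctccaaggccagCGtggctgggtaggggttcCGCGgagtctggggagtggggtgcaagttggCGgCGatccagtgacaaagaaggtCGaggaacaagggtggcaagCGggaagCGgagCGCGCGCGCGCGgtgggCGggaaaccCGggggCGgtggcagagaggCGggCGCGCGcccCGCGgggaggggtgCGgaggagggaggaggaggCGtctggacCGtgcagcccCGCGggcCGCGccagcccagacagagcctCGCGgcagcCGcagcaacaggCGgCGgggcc
Kcna2: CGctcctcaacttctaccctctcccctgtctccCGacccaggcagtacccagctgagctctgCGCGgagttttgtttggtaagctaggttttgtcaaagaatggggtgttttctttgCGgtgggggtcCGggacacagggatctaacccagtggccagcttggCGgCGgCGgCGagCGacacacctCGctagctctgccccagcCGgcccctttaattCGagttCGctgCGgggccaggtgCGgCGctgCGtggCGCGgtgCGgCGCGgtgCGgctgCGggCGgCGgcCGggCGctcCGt
Kcna10: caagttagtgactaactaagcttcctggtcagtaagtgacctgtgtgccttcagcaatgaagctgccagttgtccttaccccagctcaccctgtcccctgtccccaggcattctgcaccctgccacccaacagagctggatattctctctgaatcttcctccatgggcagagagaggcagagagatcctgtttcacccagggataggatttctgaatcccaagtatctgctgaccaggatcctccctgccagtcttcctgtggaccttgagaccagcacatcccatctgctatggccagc

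The motif CG, which reads the same on both strands, occurred 37 times in the Kcna3 window, 31 times in that of Kcna2 and 0 times in that of Kcna10. Over all 32851 windows of this length the median was 7, 94.6% held at least 1 CG and 10.6% held at least 31. The order of the CG counts was that of the levels, and the Kcna3 and Kcna2 windows both held at least 31 while their levels lay far apart. These are 3 genes, and no relation was tested. Promoter windows were found for 67 of the 92 genes (72.8%), and CG content was not set against level over the whole set. The order of the trio did not hold throughout the 67: Kcnj4 had 41 CG and 0 counts, and Kcnrg 1 CG and a mean of 4.02 TPM.

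Kcnq genes include those for subunits of the M-current, a slow voltage-gated current that muscarinic receptors inhibit. Of the 5 genes 3 were detected. Kcnq3, a neuronal M-current subunit, had 1.36 and 1.5 TPM. Kcnq5 (0.55 and 0.80 TPM) and Kcnq1, the cardiac and epithelial member (0.67 and 0.69 TPM), were under the detection level in both libraries.

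Of the 8 Kcnh genes, voltage-gated channels with a cyclic-nucleotide-binding-like domain, 5 were detected. Kcnh2, the erg channel of cardiac repolarization that is also present in neurons, had 7.40 and 8.14 TPM. Kcnh4 had 6.93 and 6.55 TPM, Kcnh7 6.22 and 5.35 TPM and Kcnh8 4.90 and 4.28 TPM, and these 4 formed a run in which no neighbour differed beyond the spread. Kcnh8 was 3.18-fold above the next gene, Kcnh1 (2.21 to 4.58), which had 1.62 and 1.16 TPM. Kcnh2 exceeded its erg relative Kcnh7 by 1.34-fold (1.04 to 1.72). That small difference held its side of 0 only with the spread taken over genes of at least 1 TPM. Its interval included 0 with all genes above 0. The filter match of Kcnh7 lay in Kcnh7-201, with 22.9% and 25.3% of its gene. That of Kcnh2 lay in Kcnh2-201, with 62.8% and 68.4%. The pair was not compared on those transcripts alone. Kcnh5 (1.03 and 0.96 TPM) missed the detection level in replicate 2 alone.

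The silent Kv genes, whose products form no channel alone and modify Kv2 channels when they join them, were mostly low. Only Kcng1 (2.15 and 3.05 TPM), Kcnf1 (2.30 and 1.78 TPM) and Kcnv1 (1.41 and 1.58 TPM) of the 10 were detected, and they did not differ from neighbour to neighbour beyond the spread. Kcns2 lay just outside at 0.97 and 0.98 TPM. The remaining 6 had means between 0.02 TPM (Kcnv2) and 0.445 TPM (Kcng2). All 10 summed to 7.90 and 8.49 TPM, beside 5.87 and 5.78 TPM for the Kv2 gene Kcnb2.

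Of the 8 calcium- or sodium-activated genes 7 were detected, the highest share of any group (87.5%), beside 60.2% of all protein-coding genes. The group is small, and Kcnt2 lay near the detection level at 1.07 and 1.22 TPM. Kcnn1, Kcnn2 and Kcnn3 encode the small-conductance SK channels, which follow calcium entry after an action potential. Kcnn1 had 7.58 and 9.38 TPM, Kcnn2 5.15 and 6.23 TPM and Kcnn3 3.51 and 3.78 TPM. Kcnn1 was 2.28-fold above Kcnn3 (1.72 to 3.03) and Kcnn2 1.54-fold above it (1.15 to 2.06), but on protein-coding transcripts alone the Kcnn2 to Kcnn3 log2 ratio was -0.07 in place of 0.62. Kcnn4, the intermediate-conductance channel gene of blood cells and epithelia, had 0.31 and 0.37 TPM.

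Kcnma1, the pore of the large-conductance BK channel that opens to calcium and voltage together, had 8.49 and 6.44 TPM. Its neuronal auxiliary subunit Kcnmb4, with 20.8% of its exon bases opposite the antisense gene Kcnmb4os2, had 10.86 and 10.19 TPM, 1.42-fold above the pore gene (1.1 to 1.83). On protein-coding transcripts alone the log2 ratio of Kcnma1 to Kcnmb4 went from -0.50 to -0.10 and its interval included 0. Kcnt1, a sodium-activated channel gene, had 5.81 and 3.89 TPM and was 3.91-fold above its relative Kcnt2 (2.63 to 5.80), which had 1.07 and 1.22 TPM. On protein-coding transcripts alone the log2 ratio of Kcnt1 to Kcnt2 was 0.79 in place of 1.97. Kcnu1, best known as a sperm channel gene, had 2.83 and 2.89 TPM. Nearly all of it was on Kcnu1-202 (71.4% and 84.5%) and Kcnu1-203 (26.4% and 15.5%). The filter match lay in neither of them but in Kcnu1-201.

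Inward rectifiers were among the lowest groups, with 5 of 14 detected and none above a mean of 3.02 TPM. The Girk genes, whose channels open to G-protein beta-gamma subunits, were Kcnj9 at 3.22 and 2.82 TPM, Kcnj3 at 2.16 and 1.89 TPM, Kcnj6 at 1.78 and 1.87 TPM and Kcnj5, best known from the heart and not detected, at 0.71 and 0.43 TPM. Of the Kcnj3 exon bases 31.1% lie opposite Gm26794, which had 0.16 and 0.08 TPM. Kcnj3 and Kcnj6 did not differ beyond the spread (log2 ratio 0.14, interval -0.36 to 0.64). Kcnj9 was 1.62-fold above Kcnj6 (1.16 to 2.25) and 1.47-fold above Kcnj3 (1.06 to 2.04), and both intervals included 0 on the log2 scale when only protein-coding transcripts were counted. Kcnj6 is known from dopaminergic neurons among others. Its 64 and 100 counts gave a TMM-scaled ratio of replicate 2 over replicate 1 of 1.21 (95% counting interval 0.875 to 1.68), and the part of the higher dopaminergic marker sum in replicate 2 was not tested.

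Apart from Kcnj13, described next, the other inward rectifiers lay at the detection level or below. Kcnj2, a classical strong rectifier, was the gene just inside it at 1.03 and 1.06 TPM. Kcnj12 (0.52 and 1.07 TPM) and Kcnj11 (0.51 and 0.91 TPM), the pore gene of the ATP-sensitive channel, were outside, and the sulfonylurea receptor gene Abcc8, which pairs with Kcnj11, had 1.17 and 0.87 TPM. Kcnj10, the rectifier of mature astrocytes, had 0.80 and 0.77 TPM. Of 4 astrocyte markers Gfap (0.00 and 0.01 TPM) and Aqp4 (0.54 and 0.80 TPM) were not detected, while Gja1 (68.47 and 61.13 TPM) and Aldh1l1 (22.76 and 24.85 TPM) were. Kcnj1 and Kcnj4 were listed at 0 counts in both libraries.

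Kcnj13, known from choroid plexus and other epithelia, had 1.78 and 3.17 TPM from 41.83 and 89.44 estimated counts. Of its annotated exon bases 49.1% overlap Gigyf2 on the opposite strand, a gene with 57.00 and 57.59 TPM, and its level is therefore uncertain. Of the 5 choroid plexus markers Ttr (61.75 and 116.55 TPM) and Clic6 (1.00 and 2.46 TPM) were also higher in replicate 2. Folr1 (9.08 and 10.28 TPM) and Kl (0.45 and 0.49 TPM) were close in the libraries, and Cldn2 (0.15 and 0.09 TPM) was near 0. Their part in the Kcnj13 values was not tested.

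The 2-pore group was carried by a pair of genes. Kcnk10 (chromosome 12, 98429437 to 98578310) had 26.30 and 24.66 TPM, and Kcnk2 (chromosome 1, 189207930 to 189402273) had 12.97 and 13.11 TPM. Of the Kcnk2 exon bases 12.2% lie opposite A430027H14Rik, which had 4.95 and 5.05 TPM. Both encode channels of the TREK family, leak channels known to answer membrane stretch, temperature and lipids, and together they made up 80.04% and 78.2% of the TPM of the group. Kcnk10 was 1.95-fold above Kcnk2 (1.64 to 2.31). As printed above, the first pore of Kcnk10 has tyrosine in the filter where that of Kcnk2 has phenylalanine, and the second pores both have phenylalanine. The third TREK-family gene, Kcnk4, had 0.09 and 0.12 TPM.

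Below that pair the group descended in clear steps. Kcnk1, a TWIK channel gene, had 5.30 and 4.69 TPM, and Kcnk2 was 2.58-fold above it (2.05 to 3.26). Kcnk5, an alkali-sensitive channel gene, had 1.65 and 2.11 TPM, and Kcnk1 was 2.59-fold above it (1.85 to 3.62). Kcnk3, an acid-sensitive TASK channel gene, had 1.60 and 1.33 TPM, which did not differ from Kcnk5 beyond the spread. Its relative Kcnk9 had 0.27 and 1.31 TPM, so Kcnk3 was higher in replicate 1 and the pair nearly equal in replicate 2. Another 8 Kcnk genes had means of 0.335 TPM or less, Kcnk16 with 0 counts in both libraries.

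Auxiliary genes included 4 of the 7 genes above 10 TPM. Kcnip1, a calcium-binding subunit of Kv4 channels (chromosome 11, 33629339 to 33993152), had 37.65 and 32.52 TPM. Its relatives Kcnip4 (6.99 and 6.25 TPM), Kcnip3 (3.66 and 4.31 TPM) and Kcnip2 (2.31 and 2.37 TPM) were all detected. Kcnip1 was 5.23-fold above Kcnip4 (4.24 to 6.45), and Kcnip4 was 1.65-fold above Kcnip3 (1.25 to 2.18). The 4 Kcnip genes summed to 50.61 and 45.45 TPM, and the 3 Kcnd genes, the Kv4 pores they bind, to 15.29 and 15.70 TPM. Dpp6, another Kv4 partner, had 35.61 and 34.58 TPM, and Dpp10 4.50 and 5.41 TPM.

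The beta subunits of Kv1 channels were also all detected. Kcnab2 had 17.80 and 17.17 TPM, 4.02-fold above Kcnab1 (3.21 to 5.04), which had 4.24 and 4.31 TPM, and Kcnab3 had 3.21 and 3.82 TPM. On protein-coding transcripts alone the log2 ratio of Kcnab1 to Kcnab2 was -2.76 in place of -2.01. Kcne1l, also called Kcne5, an X-linked single-span subunit, had 17.97 and 17.59 TPM and did not differ from Kcnab2 beyond the spread. Other Kcne genes were low: Kcne4 had 1.13 and 1.39 TPM, Kcne3 0.65 and 1.09 TPM and Kcne1, the cardiac partner of Kcnq1, 0.10 and 0.07 TPM. Of the BK subunits Kcnmb2 had 5.68 and 5.11 TPM beside Kcnmb4, while Kcnmb1, the smooth-muscle form, had 0.16 and 0.15 TPM. Kcnrg, named for a regulator of Kv channel assembly, had 3.89 and 4.15 TPM.

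Over all 23 pairs of relatives or partners, 16 had both genes detected and so an interval, and 14 of these intervals excluded 0. The exceptions were Kcnd2 with Kcnd3 and Kcnj3 with Kcnj6. Among the 45 steps between neighbours in the order within groups, 13 intervals excluded 0 and 32 included it.

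**Figure D3:**
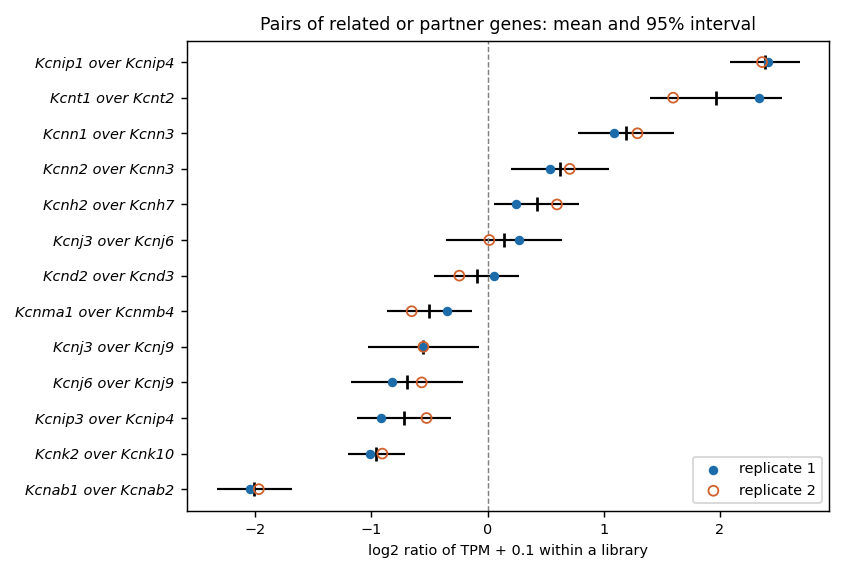
Log2 ratio of TPM + 0.1 of the first gene over the second within replicate 1 (filled) and replicate 2 (open), with the mean (tick) and its 95% interval (line), for 13 of the 16 pairs whose genes were both detected. Kcnip1 over Kcnip4 is farthest from 0 of those drawn at 2.39, and the intervals of Kcnj3 over Kcnj6 and Kcnd2 over Kcnd3 cross the dashed line at 0.

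Other genes that work with these channels were measured at higher levels. Of 31 accessory and clustering proteins 26 were detected, among them the calmodulin gene Calm2 (1331.31 and 1185.33 TPM) and the G-protein subunit gene Gnb1 (877.74 and 788.81 TPM), with Lrrc26 and Lrrc52 lowest at 0.00 and 0.21 TPM each. All 6 subunits of the sodium-potassium pump, which builds the potassium gradient, were detected, among them Atp1b3 at 137.88 and 139.21 TPM and, lowest, Atp1b2 at 19.04 and 18.91 TPM. Of 4 hyperpolarization-activated cation channel genes 2 were detected, Hcn3 (23.55 and 24.99 TPM) and Hcn4 (1.92 and 2.85 TPM), and Hcn2 was lowest at 0.15 and 0.34 TPM. The repressor of neuronal genes, Rest, had 6.54 and 6.68 TPM, and its cofactors Rcor2 and Rcor1 had 33.79 and 41.32 TPM and 5.30 and 4.69 TPM.

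The detection line fell inside a dense stretch of genes. By mean level, the genes just inside it were Kcnj2, Kcnt2, Kcne4 and Kcnh1, and those just outside Kcnh5, Kcns2, Kcne3 and Kcna1. The genes at or above 1 TPM in 1 library only were Kcnk9, Kcnh5, Kcne3 and Kcnj12. Of the 39 undetected genes 12 had a mean under 0.1 TPM, and 5 of these had 0 counts in both libraries (Kcna7, Kcna10, Kcnj1, Kcnj4 and Kcnk16).

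Transcript tables divide each gene's level among its annotated transcripts. Of the 53 detected genes 33 had all of their TPM, within 1%, on protein-coding transcripts, and 14 had under 90% there. Kcna6 stood apart, with 0.144% and 0.686% on protein-coding transcripts: its leading transcript, Kcna6-201, is annotated as a target of nonsense-mediated decay and took 65.7% and 59.8%, and the processed transcript Kcna6-203 took 34.2% and 39.6%. It was the only 1 of 53 detected genes (1.89%) led in both libraries by a transcript that is not protein-coding, beside 6.07% of detected protein-coding genes. Biotypes are those of the M21 annotation, while the tables used M4, and 39.6% of the Kcna6 exon bases overlap the antisense gene Gm26673, which had 0.00 and 0.07 TPM.

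Retained-intron transcripts took sizable shares of several genes. In Kcnt1 they held 51.9% and 58.0%, in Kcnab3 54.4% and 42.7%, in Kcnn2 32.5% and 33.0% and in Kcnj9 24.5% and 18.9%. In Kcnk2 a transcript marked for nonsense-mediated decay held 23.3% and 17.9%. On protein-coding transcripts alone 51 genes stayed detected, and the auxiliary group took 34.4% of the summed TPM in place of a mean of 32.4%.

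**Figure D4:**
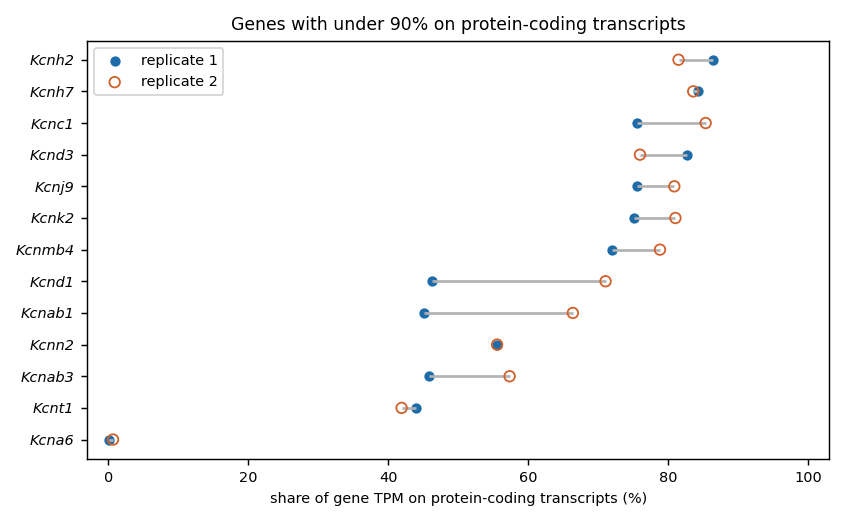
Share of each gene's TPM on protein-coding transcripts, in percent, in replicate 1 (filled) and replicate 2 (open), for 13 of the 14 detected genes with a mean under 90%. Kcna6 lies at 0.144% and 0.686%, and Kcnd1, Kcnab1 and Kcnab3 differ most between the libraries.

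The leading transcript was the same in both libraries for 16 of 17 genes with at least 2 transcripts and 5 TPM. The exception was Kcnn2, led by the retained-intron transcript Kcnn2-207 in replicate 1 (32.5%, and 33.0% in replicate 2) and by the protein-coding Kcnn2-205 in replicate 2 (36.4%, and 16.5% in replicate 1). Among protein-coding genes of that level 7.18% differed. At 1 TPM or more 35 of 39 were the same, and Kcnd1, Kcne4 and Kcnt1 joined Kcnn2.

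By the 2-fold rule the well-counted potassium channel genes lay near the background share of protein-coding genes. A single library stood on either side and gave no test, so ratios of TMM-scaled counts are given with exact (Clopper-Pearson) 95% intervals of counting error. Of 59 genes whose mean count reached 50, 0 differed by 2-fold, beside 0.596% of 13083 protein-coding genes of that depth. At 1.5-fold, 2 genes were higher in replicate 2 (3.39%, beside 1.92%) and 1 in replicate 1 (1.69%, beside 0.818%). Kcna5 had 148 and 316 counts, 1.65-fold higher in replicate 2 (1.36 to 2.02), and Kcnj13 was 1.64-fold higher there (1.12 to 2.43). Kcnj5 had 63 and 51 counts and a replicate 2 to replicate 1 ratio of 0.627 (0.424 to 0.921).

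The larger ratios were all at lower depth. Of 10 genes with a mean count from 20 to under 50, 4 were at least 2-fold higher in replicate 2 and 0 in replicate 1. Of protein-coding genes of that depth 6.48% were at least 2-fold higher in replicate 2. This range and direction were not part of the planned rule, a mean count of at least 50 in either direction. Kcnk9 had 6 and 39 counts, a ratio of 5.03 (2.11 to 14.5), Kcng4 5 and 36 (5.57, 2.18 to 18.2) and Kcnh3 7 and 38 (4.20, 1.85 to 11.2). Kcnj12 had 23 and 63 counts (2.12, 1.30 to 3.58). All 4 were higher in replicate 2 with intervals above 1, and counting intervals do not cover the spread between samples. Over the 77 genes whose mean count reached 10 the median log2 ratio of replicate 2 over replicate 1 was 0.11, beside 0.01 over protein-coding genes. With the ratio of TPM + 0.1 it was 0.04, beside -0.04, and with TMM and no count minimum 0.06, beside 0.00. With TMM, 50 of the 77 (64.9%) were above 0, beside 52.4%. Among those of at least 50 counts the median size of the log2 ratio was 0.156, beside 0.0960. These sets were not matched for depth above that minimum, and counting error alone gives larger ratios at lower counts.

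**Figure D5:**
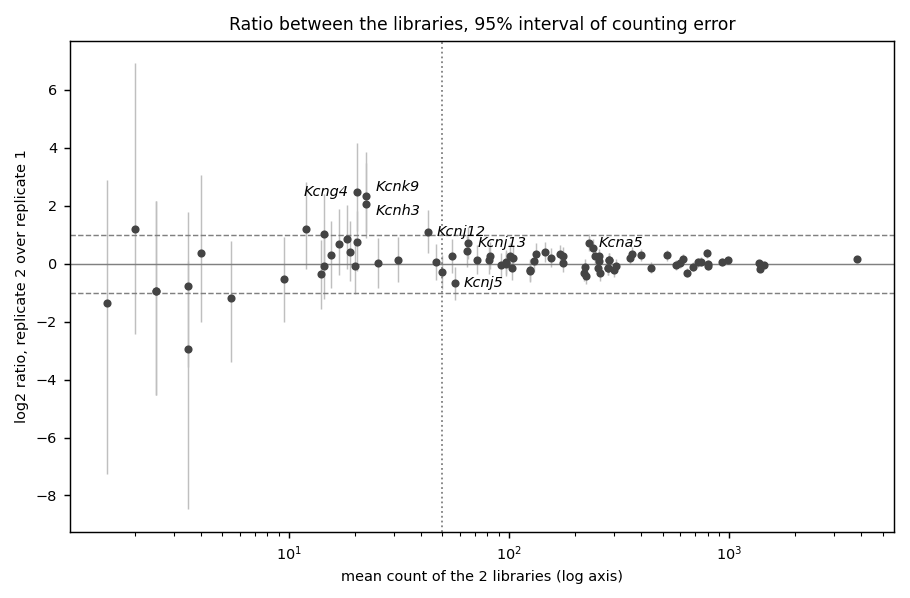
Log2 ratio of TMM-scaled counts, replicate 2 over replicate 1, against the mean count (log axis) for the potassium channel genes with counts in both libraries; lines are 95% intervals of counting error, dashed lines mark 2-fold and the dotted line a mean count of 50. No gene to the right of the dotted line passes 2-fold, and to the left Kcnk9, Kcng4, Kcnh3 and Kcnj12 pass it, as do some genes of under 20 counts with wide intervals.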

How the data were processed

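Total RNA-seq of midbrain was measured in 2 libraries of 1 group. The authors deposited gene and transcript tables on mm10 with GENCODE M4, per the text deposited with the libraries. The expected counts deposited are estimated reads and can be fractional, the deposited TPM and FPKM values are scaled to length and library, and the deposited percent values give each transcript's share of its gene, per the file headers. The posterior standard deviation of the count, another deposited column, was used to find shared reads (over 1% of the count in 5 genes, Kcnj13 highest of the detected ones at 4.11% and 2.86%). For the aligner and the strand setting: not given in the sources used here. Symbols, biotypes and positions came from GENCODE M21 (42462 of 43346 genes matched by identifier).

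Counts, rounded, were scaled with TMM (edgeR 4.0.16, R 4.3.3), with spike-ins, which took 5.36% and 9.39% of TPM, left out. Intervals for 2 genes in a library are on log2(TPM + 0.1), which understates differences of low genes, with a spread moderated by limma 3.58.1 over 14878 genes with a TPM of at least 1. No p-value was computed. They cover only the spread between these 2 samples. Named genes were up to 5 highest of each group, genes of the 23 pairs and those at a threshold or with unusual transcripts or ratios; others named were chosen after their values were seen. A few genes named by the rule are left out of the text and of the named plots. Members and lists were chosen with earlier results of these data known. Scripts were tested on simulated data. The alternatives included size factors of DESeq2 1.42.0, totals of the libraries, other minimums, pseudocounts of 1 and 0.01, FPKM, protein-coding transcripts only and each library alone.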

Additional observations from a re-analysis of the deposited data

Results flagged for a closer look

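Antisense genes with a Kcn symbol were not part of the 92 genes and had more than 3 counts in both libraries in 4 cases, a signal in data outside the main measurement. Kcnmb4os2 had a mean of 3.61 TPM (4.22 and 2.99), and 20.8% of the Kcnmb4 exon bases overlap it on the opposite strand. Kcnq1ot1, the long antisense RNA of the imprinted Kcnq1 locus, had a mean of 2.93 TPM (2.91 and 2.94), above the 0.67 and 0.69 TPM of Kcnq1. Kcnab3os had a mean of 1.06 TPM (1.07 and 1.04) and Kcnd3os a mean of 0.375 TPM (0.28 and 0.47). The overlap with the antisense gene was 2.96% of the exon bases of Kcnq1, 5.13% of Kcnab3 and 1.72% of Kcnd3. Reads on such shared bases cannot be told apart without strand, and their share in the partner's level was not tested.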

How the results depend on the processing

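The count of 53 detected genes was 64 at a TPM of at least 0.5, 37 at 2, 43 at an FPKM of at least 1, 51 on protein-coding transcripts only, and 54 to 56 from 1 library alone. The count past 2-fold was 0 with TMM, DESeq2 size factors, library totals or the ratio of TPM + 0.1. The median log2 ratio of 0.11 between libraries ranged from 0.04 (ratio of TPM + 0.1) to 0.13 (library totals). The count past 2-fold became 4 at a mean count of at least 20, 9 with no count minimum and 3 with a 1.5-fold rule, the alternatives that admit genes of lower depth or smaller ratio. On protein-coding transcripts only, the log2 ratio of Kcnn2 to Kcnn3 changed sign, to -0.067, that of Kcnt1 to Kcnt2 was 0.79 and that of Kcnab1 to Kcnab2 -2.76. The intervals of Kcnj6 with Kcnj9, Kcnj3 with Kcnj9 and Kcnma1 with Kcnmb4 then included 0, and all 8 group shares moved by more than the SD between libraries. With the spread over all genes above 0 the intervals of Kcnh2 with Kcnh7 and Kcnj3 with Kcnj9 included 0. Pairs with an undetected gene, such as Kcna1 with Kcna2 (1.15, 0.48 at a pseudocount of 1), moved with the pseudocount. No paired analysis was possible because there is 1 group. Genes under 50 counts (33 of 92) carry wide counting intervals, and a count of 0 allows 3.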
